A study of Mus musculus with 9 samples.

Results

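The genes described here are 40 complement, clotting and fibrinolysis factors of the mouse, chosen by name from the 55401 genes of a table of liver read counts. All 40 were among the 12660 genes with enough counts to be tested, and no library held fewer than 96 reads of any of them. RNA of the left liver lobe was sequenced from the 3′ ends of polyadenylated transcripts (QuantSeq), so that a long transcript gives no more reads than a short one. STAM + Atglistatin livers (labelled replicates 4, 5 and 6) came from male mice injected with 200 µg streptozotocin at 2 days of age and given, after 4 weeks of age, a high-fat diet containing Atglistatin for 4 weeks. STAM livers (replicates 1, 2 and 3) came from mice with the same injection and the same diet without Atglistatin. Chow livers (replicates 7, 8 and 9) came from mice that received neither streptozotocin, nor high-fat diet, nor Atglistatin. Streptozotocin destroys the insulin-producing cells of the pancreas, and Atglistatin inhibits adipose triglyceride lipase (Pnpla2), which starts the breakdown of stored fat. STAM and chow livers therefore differ in both diabetes and diet, and the Atglistatin effect was measured only on that background. The study compared the groups to ask what the inhibitor does to the fatty liver disease of diabetic mice. Each group had 3 livers. No source used here says whether mice were littermates or shared a cage, and p-values weigh group differences against the spread between these livers.

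Complement is a cascade of plasma proteins that tags and lyses microbes. It starts on antibodies (classical pathway), on sugars (lectin pathway) or on surfaces left unprotected (alternative pathway), converges on C3, and ends in a pore built from C5b, C6, C7, C8 and C9. Clotting is a parallel cascade of serine proteases that ends in thrombin, which cuts fibrinogen into fibrin, while plasmin dissolves the clot. Hepatocytes make most of these proteins, several of them as acute-phase proteins, and falling plasma levels are a familiar sign of failing liver synthesis.

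In STAM against chow livers, 10 of the 40 genes fell at an edgeR adjusted p under 0.05 (25% of the set, against 1.99% of all tested genes that were lower) and 0 rose (1.95% of all tested genes were higher). The 10 were all 3 fibrinogen chains, prothrombin, 3 serpins that restrain clotting or fibrinolysis, vitronectin, complement factor I and C8b. In STAM + Atglistatin against STAM livers, 4 genes fell (10%, against a background of 0.742%), and all were pore components: C6, C8a, C8b and C9. The mannose-binding lectin Mbl2 alone rose (2.5%, background 1.04%). In STAM + Atglistatin against chow livers, 13 genes fell (32.5%, background 1.97%) and 2 rose, Mbl2 and properdin (5%, background 2.10%). Highly expressed genes were called more often, since among the 5191 genes at or above the lowest mean of any member (19.6 CPM, where CPM is a gene's reads per 1000000 reads of all tested genes, after TMM scaling) 3.93%, 1.43% and 3.80% were lower in these 3 comparisons. Of the same 5191 genes, 3.10%, 2.12% and 3.29% were higher, so that the shares of members that rose were near this background. The cut was set by Cfb and most members lay far above it, so these shares are not matched to the level of the set.

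The median log2 fold change of the 40 genes was -0.29 in STAM against chow, -0.04 in STAM + Atglistatin against STAM and -0.29 in STAM + Atglistatin against chow, beside -0.00 over all genes tested in each. The comparisons share livers, so that their values are not independent. C8b was the single gene lower in both of the first 2 comparisons. No gene was lower in STAM than in chow livers and then higher in STAM + Atglistatin than in STAM livers by edgeR, DESeq2 or limma-voom at an adjusted p under 0.05. At an unadjusted edgeR p under 0.05 in both, 3 genes did so (Kng1, F2 and Serpinc1). Over the 3 comparisons 18 genes were called at least once and 22 were not.

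**Figure D1:**
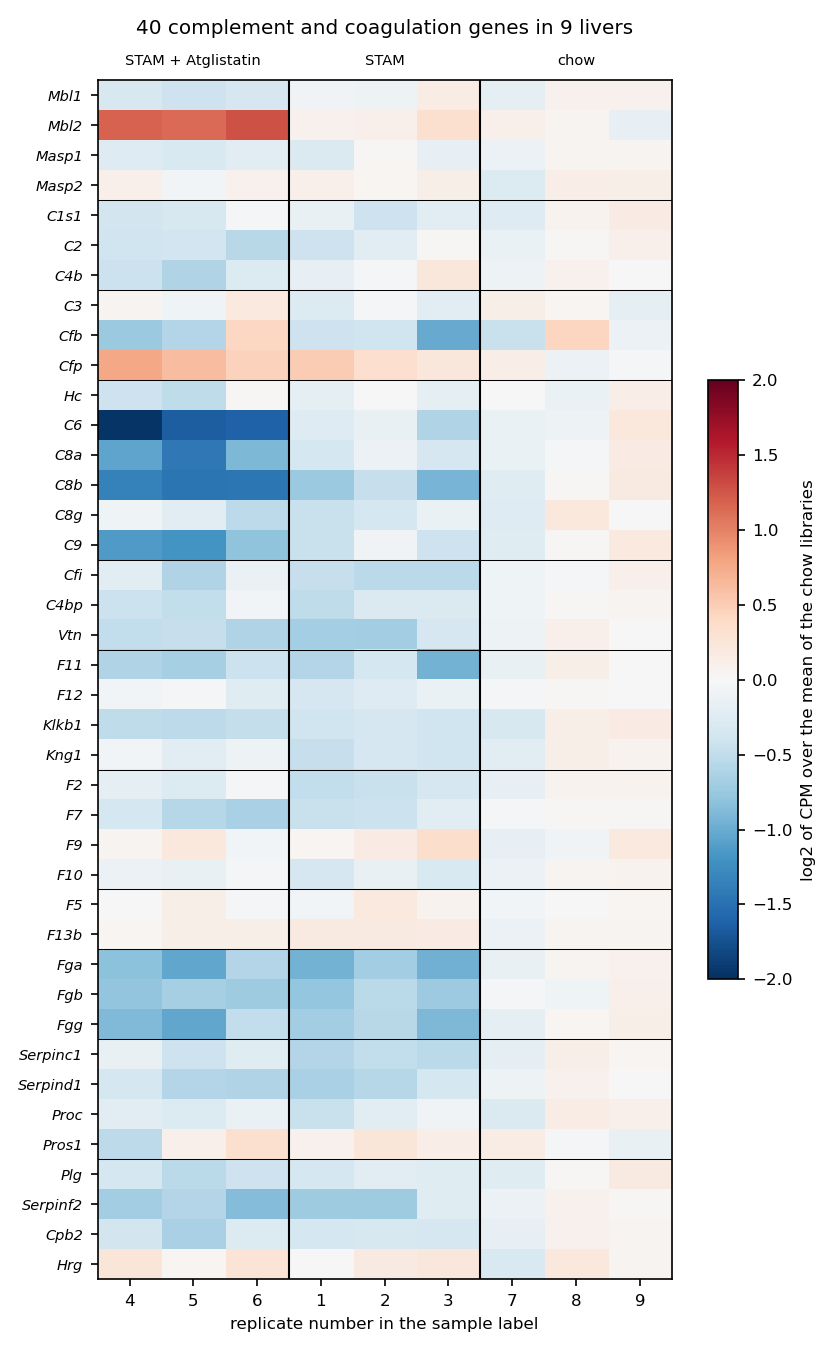
Level of each of the 40 genes (rows, grouped by role between thin lines) in each of 9 livers (columns), as log2 of CPM over the mean of the 3 chow livers. Fga, Fgb and Fgg are blue in all 6 STAM and STAM + Atglistatin livers, C6, C8a, C8b and C9 are darkest in the 3 STAM + Atglistatin livers, and Mbl2 is red in those 3.

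Library totals ran from 7409090 to 9911855 counts. Reads of the 40 genes made up 2.85, 2.70 and 3.07% of the counts in STAM + Atglistatin livers, 2.73, 2.96 and 2.70% in STAM livers and 3.45, 3.46 and 3.45% in chow livers. These shares are of counts before TMM scaling. In CPM, replicate 7 was the lowest chow liver for 34 of the 40 genes. The TMM factors were 1.03 for chow replicate 7, 0.932 for replicate 8 and 0.918 for replicate 9. STAM replicate 1 was the lowest of its group for 26 genes, and STAM + Atglistatin replicate 5 for 24. Without chow replicate 7, 14 genes were lower in STAM than in chow livers, and 17 were lower in STAM + Atglistatin than in chow livers. Over all tested genes, that omission gave 374 and 381 lower of 13078, beside 252 and 250 of 12660 with all livers. The counts were smaller without other livers. For STAM against chow they were 4 when chow replicate 8 or STAM replicate 1 was left out (168 and 151 of all tested genes). They were 6 when chow replicate 9 or STAM replicate 2 was left out (179 and 165 of all tested genes). For STAM + Atglistatin against STAM they were 2 without STAM + Atglistatin replicate 5 or STAM replicate 2. Of all tested genes, 52 and 57 were lower without these livers, beside 94 with all livers. For STAM + Atglistatin against chow, 8 of the 40 were lower without STAM + Atglistatin replicate 5 or 6 or chow replicate 8 or 9. Of all tested genes, 132, 211, 143 and 147 were then lower, beside 250 with all livers.

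Other hepatocyte genes also fell in STAM livers. Of 17 tested hepatocyte markers outside the set, such as albumin and the apolipoproteins, 0 rose and 6 fell against chow. The median log2 fold change of the 17 was -0.27. The 6 falls were 35.3% of these markers, beside 25% of the complement and clotting set and 1.99% of all tested genes. Falls in STAM against chow were therefore no more frequent in the set than among these markers. The markers summed to 108426 to 113816 CPM in STAM + Atglistatin livers, 85133 to 97742 CPM in STAM livers and 130915 to 144547 CPM in chow livers, and 0 of them were at 0 in all libraries. Much of each sum was Alb, with means of 45727 CPM in STAM + Atglistatin, 29475 CPM in STAM and 60367 CPM in chow livers. The median log2 fold change of the 17 markers in STAM + Atglistatin against STAM was 0.11. Mitochondrial transcripts took 8.64 to 9.73% of counts in STAM + Atglistatin livers, 11.03 to 11.57% in STAM livers and 7.32 to 8.78% in chow livers. The part of either in the fall of the clotting genes was not tested. In whole-liver RNA, fewer hepatocytes and less RNA of a gene per hepatocyte cannot be told apart.

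The lectin pathway starts when collectins bind microbial sugars and activate their partner proteases. Mbl2, which encodes the mannose-binding lectin C of the mouse (chr19:30232942-30239687, plus strand, GRCm38), had 1132, 1099 and 1215 CPM in STAM + Atglistatin livers, 531, 540 and 628 CPM in STAM livers and 538, 522 and 447 CPM in chow livers. Each of the 3 STAM + Atglistatin livers lay above all 6 others. Mbl2 was 2.03-fold higher in STAM + Atglistatin than in STAM livers (log2 fold change 1.02 ± 0.12 SE, edgeR adjusted p = 4.37e-05) and 2.29-fold higher than in chow livers (1.19 ± 0.12, edgeR adjusted p = 4.47e-06). STAM and chow livers overlapped (0.17 ± 0.12, edgeR adjusted p = 0.558).

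The sister lectin Mbl1 was called in no comparison. It encodes mannose-binding lectin A and had 192, 179 and 189 CPM in STAM + Atglistatin livers, 229, 223 and 265 CPM in STAM livers and 209, 255 and 255 CPM in chow livers. All 3 STAM + Atglistatin livers were below the others, but the differences from STAM (log2 fold change -0.36 ± 0.12, edgeR adjusted p = 0.236) and from chow (-0.36, edgeR adjusted p = 0.136) did not pass. The ratio of Mbl2 to Mbl1 was 5.90, 6.13 and 6.43 in STAM + Atglistatin livers, 2.32, 2.43 and 2.37 in STAM livers and 2.58, 2.04 and 1.75 in chow livers. Masp1, a protease that acts with the lectins, averaged 120 ± 3.67 CPM in STAM + Atglistatin livers, 131 ± 14.2 CPM in STAM livers and 144 ± 10.2 CPM in chow livers (SD, n = 3 each) and was called in no comparison. Neither was Masp2, the lectin protease that cleaves C4 and C2.

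The classical pathway genes were called in no comparison. C4b, which encodes the C4 that joins the C3-cleaving enzyme, had 460, 409 and 514 CPM in STAM + Atglistatin livers, 551, 604 and 725 CPM in STAM livers and 580, 654 and 624 CPM in chow livers. The STAM + Atglistatin livers were the lowest 3, with a log2 fold change of -0.44 ± 0.13 against STAM (edgeR adjusted p = 0.118) and -0.43 ± 0.13 against chow (edgeR adjusted p = 0.0769). C4b has a near-identical copy, C4a, and reads could be split between them. C4a fell in STAM + Atglistatin against STAM livers (log2 fold change -1.23 ± 0.29, edgeR adjusted p = 0.039), with means of 7.41 CPM in STAM + Atglistatin livers, 17.4 CPM in STAM livers and 11.6 CPM in chow livers. C2, the protease of that enzyme, averaged 69.4 ± 4.43 CPM in STAM + Atglistatin livers, 82.8 ± 12.9 CPM in STAM livers and 94.6 ± 7.55 CPM in chow livers (SD, n = 3 each). C1s1, a protease of the C1 complex, also stayed uncalled, and reads of its copy C1s2 could be counted there.

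Of the alternative pathway genes in the set, only properdin passed, and only against chow. Cfp (properdin, made chiefly by leukocytes, which stabilises the C3-cleaving enzyme) had 37.4, 33.5 and 30.1 CPM in STAM + Atglistatin livers, 31.0, 27.7 and 25.7 CPM in STAM livers and 24.1, 20.1 and 21.4 CPM in chow livers. Chow livers were the lowest 3, and the STAM livers overlapped the STAM + Atglistatin livers. Cfp rose in STAM + Atglistatin against chow livers (log2 fold change 0.62 ± 0.17, edgeR adjusted p = 0.047), and not in STAM against chow livers (0.36 ± 0.17, edgeR adjusted p = 0.337). That call was lost in 6 of 12 alternatives, among them without STAM + Atglistatin replicate 4 (edgeR adjusted p = 0.181) or 5 (0.125) or chow replicate 8 (0.178) or 9 (0.154). Over the 12 alternatives, which include DESeq2 and limma-voom for this and all such ranges, its adjusted p was 0.0349 to 0.181. Cfb (factor B, the protease of the pathway) varied most between livers of a group, with 20.1 ± 9.34 CPM in STAM + Atglistatin livers, 15.6 ± 3.50 CPM in STAM livers and 23.2 ± 7.35 CPM in chow livers (SD, n = 3 each). C3, on which all 3 pathways converge, was called in no comparison.

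Below the C3 step, 4 of the 6 pore genes of the set fell with the inhibitor while 2 did not pass. C7, a pore component outside the set, was not called lower with the inhibitor. C6, the first protein to bind C5b, had 66.6, 83.2 and 85.2 CPM in STAM + Atglistatin livers, 218, 234 and 172 CPM in STAM livers and 238, 242 and 302 CPM in chow livers. The 3 STAM + Atglistatin livers reached at most 85.2 CPM, and no other liver was below 172 CPM. C6 was 2.66-fold lower in STAM + Atglistatin than in STAM livers (log2 fold change -1.41 ± 0.15, edgeR adjusted p = 1.81e-05) and 3.33-fold lower than in chow livers (-1.73 ± 0.15, edgeR adjusted p = 1.01e-06). STAM livers did not overlap chow livers, yet that difference did not pass (-0.32 ± 0.15, edgeR adjusted p = 0.311).

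C8 is made of an alpha and a beta chain, which join the pore, and a gamma chain of the lipocalin family. C8a had 400, 308 and 445 CPM in STAM + Atglistatin livers, 652, 770 and 656 CPM in STAM livers and 756, 806 and 931 CPM in chow livers. STAM + Atglistatin livers were the lowest 3. C8a fell 1.80-fold against STAM (log2 fold change -0.85 ± 0.14, edgeR adjusted p = 0.00171) and 2.16-fold against chow (-1.11 ± 0.14, edgeR adjusted p = 7.36e-05), and STAM against chow did not pass (-0.26, edgeR adjusted p = 0.409).

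C8b fell at both steps. It had 215, 200 and 202 CPM in STAM + Atglistatin livers, 331, 398 and 288 CPM in STAM livers and 468, 558 and 628 CPM in chow livers, and no 2 groups overlapped. The fall was 1.63-fold in STAM against chow (log2 fold change -0.70 ± 0.14, edgeR adjusted p = 0.00499), 1.65-fold in STAM + Atglistatin against STAM (-0.72 ± 0.14, edgeR adjusted p = 0.00685) and 2.68-fold in STAM + Atglistatin against chow (-1.42 ± 0.14, edgeR adjusted p = 4.34e-06). The call against STAM was lost without STAM + Atglistatin replicate 5 (edgeR adjusted p = 0.0528) or STAM replicate 2 (0.0734), over a range of 9.4e-06 to 0.0734 in 12 alternatives.

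C8g passed in no comparison. It had 578, 524 and 428 CPM in STAM + Atglistatin livers, 453, 482 and 563 CPM in STAM livers and 515, 714 and 614 CPM in chow livers, and the groups overlapped. Its log2 fold change was 0.03 in STAM + Atglistatin against STAM (edgeR adjusted p = 0.975). C8g overlaps Fbxw5 on the opposite strand (74 to 206 counts a library), and no source used here says whether counting used the strand. The ratio of C8a to C8g was 0.692, 0.588 and 1.04 in STAM + Atglistatin livers, 1.44, 1.60 and 1.16 in STAM livers and 1.47, 1.13 and 1.52 in chow livers. The ratio of C8b to C8g was 0.372, 0.382 and 0.473 in STAM + Atglistatin livers, 0.731, 0.826 and 0.512 in STAM livers and 0.908, 0.782 and 1.02 in chow livers. For both ratios the STAM + Atglistatin livers were below all others. These pairs were chosen after the values were seen, and the ratios were not tested.

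C9, which polymerises to close the pore, had 355, 339 and 447 CPM in STAM + Atglistatin livers, 569, 738 and 585 CPM in STAM livers and 656, 791 and 888 CPM in chow livers. The STAM + Atglistatin livers were the lowest 3, and STAM overlapped chow. C9 fell 1.66-fold against STAM (log2 fold change -0.73 ± 0.15, edgeR adjusted p = 0.00966) and 2.05-fold against chow (-1.03 ± 0.15, edgeR adjusted p = 0.000272). The call against STAM was lost without STAM + Atglistatin replicate 4 (edgeR adjusted p = 0.0759) or 5 (0.0908) or STAM replicate 2 (0.0988), over a range of 3.15e-06 to 0.0988 in 12 alternatives. Hc, the gene of complement C5, had 399, 373 and 540 CPM in STAM + Atglistatin livers, 468, 527 and 462 CPM in STAM livers and 525, 483 and 581 CPM in chow livers. Its groups overlapped in every comparison, with a log2 fold change of -0.15 in STAM + Atglistatin against STAM (edgeR adjusted p = 0.819). The 6 pore genes of the set summed to 2014, 1827 and 2148 CPM in STAM + Atglistatin livers. The sums were 2691, 3149 and 2726 CPM in STAM livers and 3157, 3594 and 3944 CPM in chow livers.

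**Figure D2:**
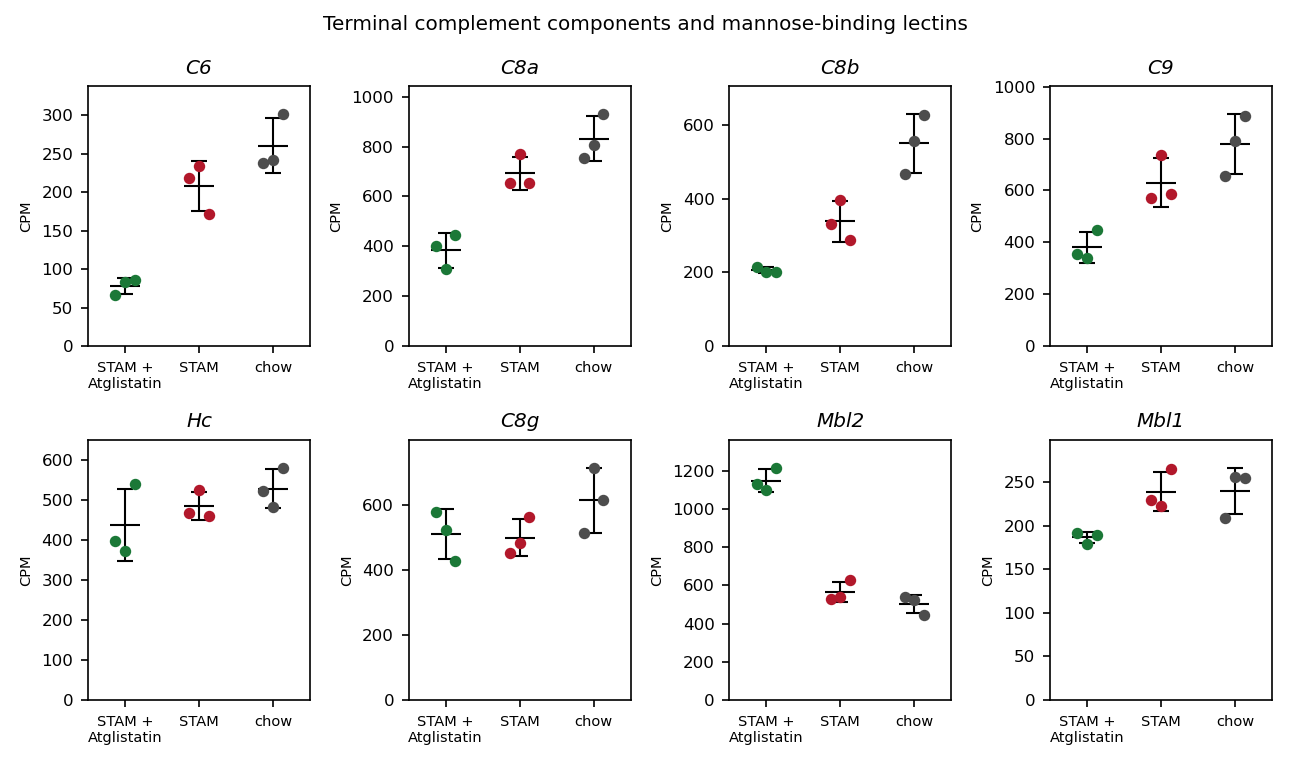
CPM of the pore genes of the set and the 2 mannose-binding lectins in each liver (points), with the group mean and SD (bars, n = 3). C6 sits between 66.6 and 85.2 CPM with Atglistatin and at 172 CPM or more elsewhere, Hc and C8g overlap between groups, and Mbl2 is at 1099 CPM or more with Atglistatin and at 628 CPM or less elsewhere.

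The 4 pore genes that fell lie as a pair on each of 2 chromosomes. C8b (chr4:104766317-104804548, plus strand) and C8a (chr4:104815679-104876398, minus strand) are 11.13 kb apart with 0 protein-coding genes between them, and C6 (chr15:4727175-4814967) and C9 (chr15:6445327-6498751), both on the plus strand, are 1630.36 kb apart with 8. Their promoters are shown with that of Mbl2 as the start regions of the genes that differed with Atglistatin. Each runs 5′ to 3′ on the gene's strand from 250 bases before the RefSeq start to 50 after it (GRCm38.p6). Capitals mark matches, on either strand, to motifs of liver and acute-phase factors: HNF1 (GTTAATNAT), HNF4 (CAAAGTCCA), C/EBP (TTNNGCAA), STAT3 (TTCCNGGAA) and the wider GAS element (TTCNNNGAA), which contains the STAT3 letters.
The windows are C6 at chr15:4726960-4727259 (plus), C9 at chr15:6445096-6445395 (plus), C8a at chr4:104876349-104876648 (minus), C8b at chr4:104766067-104766366 (plus) and Mbl2 at chr19:30232678-30232977 (plus).
C6: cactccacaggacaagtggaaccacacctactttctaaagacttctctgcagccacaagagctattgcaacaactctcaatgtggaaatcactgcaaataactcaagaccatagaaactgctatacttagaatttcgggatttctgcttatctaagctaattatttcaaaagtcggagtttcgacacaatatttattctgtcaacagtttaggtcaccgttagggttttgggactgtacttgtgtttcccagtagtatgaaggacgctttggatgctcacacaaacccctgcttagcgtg
C9: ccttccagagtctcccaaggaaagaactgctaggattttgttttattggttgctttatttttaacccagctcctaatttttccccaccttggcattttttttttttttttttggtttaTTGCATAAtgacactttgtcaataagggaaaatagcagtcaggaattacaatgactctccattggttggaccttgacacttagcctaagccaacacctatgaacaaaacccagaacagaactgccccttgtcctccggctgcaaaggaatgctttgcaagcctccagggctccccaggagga
C8a: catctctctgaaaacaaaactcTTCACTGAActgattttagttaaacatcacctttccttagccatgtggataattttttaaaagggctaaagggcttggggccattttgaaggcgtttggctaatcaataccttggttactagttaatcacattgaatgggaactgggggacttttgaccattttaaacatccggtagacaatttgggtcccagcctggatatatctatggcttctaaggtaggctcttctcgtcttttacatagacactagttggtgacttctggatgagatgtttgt
C8b: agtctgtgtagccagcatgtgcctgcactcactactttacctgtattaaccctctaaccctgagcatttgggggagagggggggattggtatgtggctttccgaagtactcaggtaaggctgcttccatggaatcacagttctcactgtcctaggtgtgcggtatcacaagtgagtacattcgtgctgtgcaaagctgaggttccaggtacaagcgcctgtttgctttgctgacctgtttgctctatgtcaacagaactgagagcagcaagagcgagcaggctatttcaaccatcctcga
Mbl2: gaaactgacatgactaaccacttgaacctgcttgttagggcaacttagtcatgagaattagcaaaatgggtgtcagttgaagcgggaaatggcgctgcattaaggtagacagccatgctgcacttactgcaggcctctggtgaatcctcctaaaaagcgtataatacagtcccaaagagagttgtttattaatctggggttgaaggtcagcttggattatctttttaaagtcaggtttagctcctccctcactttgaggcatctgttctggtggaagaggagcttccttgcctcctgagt
C9 holds a C/EBP match that starts 132 bases before the start and C8a a GAS match at 228 bases, while the windows of C6, C8b and Mbl2 hold none of the 5 letter strings. The last says only that these letters are not in these windows.

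Of 3 complement regulators, 2 fell in STAM livers. Cfi (factor I, the protease that cuts C3b and C4b; chr3:129835884-129875332, plus strand) had 316, 242 and 333 CPM in STAM + Atglistatin livers, 265, 253 and 253 CPM in STAM livers and 346, 361 and 392 CPM in chow livers. STAM lay below chow, and STAM + Atglistatin livers spanned the STAM level. The log2 fold change was -0.51 ± 0.13 in STAM against chow (edgeR adjusted p = 0.0294) and 0.21 in STAM + Atglistatin against STAM (edgeR adjusted p = 0.654). The call was lost in 6 of 12 alternatives (adjusted p 0.0042 to 0.128 over the 12), among them when leaving out chow replicate 8 (0.0805), chow replicate 9 (0.128) or STAM replicate 1 (0.101), 2 (0.124) or 3 (0.103).

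Vtn (vitronectin, which keeps the pore from inserting into host membranes; chr11:78499091-78502324, plus strand) had 1057, 1079 and 976 CPM in STAM + Atglistatin livers, 930, 916 and 1178 CPM in STAM livers and 1381, 1591 and 1489 CPM in chow livers. All chow livers were above the 6 others. Vtn fell in STAM against chow (log2 fold change -0.56 ± 0.12, edgeR adjusted p = 0.0102) and in STAM + Atglistatin against chow (-0.52 ± 0.12, edgeR adjusted p = 0.0178), while STAM + Atglistatin and STAM differed by 0.04 (edgeR adjusted p = 0.96). In STAM against chow the call was lost without chow replicate 8 (edgeR adjusted p = 0.0608) or STAM replicate 1 (0.0838) or 2 (0.0829), over a range of 0.000195 to 0.0838. Against chow, the STAM + Atglistatin call was lost without any 1 of replicates 4, 5 and 6 or chow replicates 8 and 9 (edgeR adjusted p 0.0532 to 0.0917). C4bp, which helps factor I to cut C4b, averaged 365 ± 61.5 CPM in STAM + Atglistatin livers, 354 ± 29.3 CPM in STAM livers and 454 ± 21.7 CPM in chow livers (SD, n = 3 each) and was not called.

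Fibrinogen fell as a unit in STAM livers and stayed low with the inhibitor. Its 3 chains form the hexamer that thrombin converts to fibrin, and they summed to 6110, 6013 and 7030 CPM in STAM + Atglistatin livers, 6237, 7200 and 6106 CPM in STAM livers and 10081, 10687 and 11585 CPM in chow livers. Fga, the alpha chain, had 1480, 1262 and 1733 CPM in STAM + Atglistatin livers, 1355, 1602 and 1336 CPM in STAM livers and 2336, 2711 and 2758 CPM in chow livers. Every chow liver was above every other liver. Fga was 1.82-fold lower in STAM than in chow livers (log2 fold change -0.86 ± 0.13, edgeR adjusted p = 0.0005) and differed by -0.80 ± 0.13 between STAM + Atglistatin and chow (edgeR adjusted p = 0.00108). Between STAM + Atglistatin and STAM the difference was 0.06 ± 0.13 (edgeR adjusted p = 0.941).

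The other two chains gave the same picture. Fgb, the beta chain, had 3042, 3339 and 3215 CPM in STAM + Atglistatin livers, 3080, 3617 and 3200 CPM in STAM livers and 5162, 4985 and 5658 CPM in chow livers. It was 1.60-fold lower in STAM than in chow livers (log2 fold change -0.68 ± 0.11, edgeR adjusted p = 0.000862), with -0.72 ± 0.11 between STAM + Atglistatin and chow (edgeR adjusted p = 0.0005). Fgg, the gamma chain, had 1589, 1413 and 2082 CPM in STAM + Atglistatin livers, 1802, 1981 and 1570 CPM in STAM livers and 2583, 2991 and 3169 CPM in chow livers. It was 1.63-fold lower in STAM than in chow livers (-0.71 ± 0.14, edgeR adjusted p = 0.00595), with -0.78 ± 0.14 between STAM + Atglistatin and chow (edgeR adjusted p = 0.00283). For both genes the chow livers lay above all others, and STAM + Atglistatin overlapped STAM (-0.04 for Fgb, edgeR adjusted p = 0.948, and -0.07 for Fgg, edgeR adjusted p = 0.928). All 3 chains remained called in STAM against chow in all 12 alternatives. The proportion of the chains was compared within livers, with Fga at 0.468 ± 0.0822 of Fgb in STAM + Atglistatin livers, 0.433 ± 0.0139 in STAM livers and 0.495 ± 0.0460 in chow livers (SD, n = 3 each). Fgg was at 0.531 ± 0.113 of Fgb in STAM + Atglistatin livers, 0.541 ± 0.0475 in STAM livers and 0.553 ± 0.0501 in chow livers. The second ratio overlapped between all groups, and for the first STAM livers lay just below chow livers.

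The chains are neighbours. Fgg (chr3:83007724-83015049, plus strand), Fga (chr3:83026076-83033627, plus strand) and Fgb (chr3:83040141-83049863, minus strand) are separated by 11.026 kb and 6.513 kb with 0 protein-coding genes between them. Their promoters are printed because the 3 moved together, in the same layout and with the same motifs in capitals. The windows are Fga at chr3:83025903-83026202 (plus), Fgb at chr3:83049814-83050113 (minus) and Fgg at chr3:83007474-83007773 (plus).
Fga: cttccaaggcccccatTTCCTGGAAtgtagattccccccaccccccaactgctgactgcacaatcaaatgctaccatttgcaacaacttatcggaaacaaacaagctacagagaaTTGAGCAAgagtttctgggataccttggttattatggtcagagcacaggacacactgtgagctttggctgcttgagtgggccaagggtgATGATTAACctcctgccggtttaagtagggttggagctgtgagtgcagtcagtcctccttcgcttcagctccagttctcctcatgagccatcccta
Fgb: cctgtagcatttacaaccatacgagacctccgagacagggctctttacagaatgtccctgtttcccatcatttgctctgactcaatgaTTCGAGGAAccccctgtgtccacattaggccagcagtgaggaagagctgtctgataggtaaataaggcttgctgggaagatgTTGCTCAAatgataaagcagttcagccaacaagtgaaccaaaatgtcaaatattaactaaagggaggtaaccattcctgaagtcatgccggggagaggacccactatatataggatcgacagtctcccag
Fgg: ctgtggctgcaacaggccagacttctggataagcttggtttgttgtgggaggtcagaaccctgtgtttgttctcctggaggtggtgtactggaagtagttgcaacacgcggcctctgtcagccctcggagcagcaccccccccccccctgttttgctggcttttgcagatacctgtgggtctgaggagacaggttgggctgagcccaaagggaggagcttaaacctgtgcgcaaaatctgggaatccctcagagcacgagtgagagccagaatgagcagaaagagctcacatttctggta
Before the start, Fga holds an HNF1 match at 46 bases, a C/EBP match at 135 and a STAT3 match, which is also a GAS match, at 234. Fgb holds a C/EBP match at 80 bases and a GAS match at 162, and Fgg holds none of the 5 strings. Windows were found for 32 of the 40 genes, 34 windows in all. HNF1 letters occurred in 11.8% of these (C4bp, F13b, Fga and Hc) and in 0.801% of 32851 mouse windows of the same length. C/EBP letters occurred in 32.4% against 10.8% of all windows, GAS in 20.6% against 8.30%, STAT3 in 5.88% against 1.15%, and HNF4 in 0 of the 34 against 0.475%. A match is a string of letters, and binding was not measured.

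The contact system, which starts clotting on charged surfaces, held no call in STAM against chow. F11 (factor XI, which activates factor IX) averaged 30.7 ± 2.62 CPM in STAM + Atglistatin livers, 29.6 ± 5.95 CPM in STAM livers and 45.3 ± 4.12 CPM in chow livers (SD, n = 3 each), with a log2 fold change in STAM against chow of -0.61 ± 0.17 (edgeR adjusted p = 0.0564). Kng1 (kininogen, the source of bradykinin) had 2662, 2370 and 2587 CPM in STAM + Atglistatin livers, 2011, 2190 and 2106 CPM in STAM livers and 2396, 3019 and 2898 CPM in chow livers. The 3 STAM livers were the lowest, at -0.40 ± 0.11 against chow (edgeR adjusted p = 0.0599), and STAM + Atglistatin was 0.27 ± 0.11 above STAM (edgeR adjusted p = 0.386). Its near copy Kng2, with which reads could be shared, rose in STAM + Atglistatin against STAM livers (0.51 ± 0.12, edgeR adjusted p = 0.0336), with 399 ± 14.1 CPM in STAM + Atglistatin livers, 281 ± 23.2 CPM in STAM livers and 319 ± 34.0 CPM in chow livers (SD, n = 3 each). Klkb1 (plasma prekallikrein) fell in STAM + Atglistatin against chow livers alone (-0.50 ± 0.13, edgeR adjusted p = 0.0325). It lost that call in 6 of 12 alternatives (adjusted p 0.000648 to 0.179), among them without any 1 of STAM + Atglistatin replicates 4, 5 and 6 or chow replicates 8 and 9 (0.0688 to 0.179). F12 (factor XII) was not called.

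Prothrombin fell with fibrinogen in STAM livers. F2 (chr2:91625320-91636414, minus strand) had 1422, 1333 and 1567 CPM in STAM + Atglistatin livers, 1139, 1173 and 1268 CPM in STAM livers and 1434, 1685 and 1690 CPM in chow livers. STAM was below every other liver, and STAM + Atglistatin overlapped chow. The log2 fold change was -0.43 ± 0.11 in STAM against chow (edgeR adjusted p = 0.0411) and 0.27 ± 0.11 in STAM + Atglistatin against STAM (edgeR adjusted p = 0.387). The call was lost in 7 of 12 alternatives (adjusted p 0.00235 to 0.191 over the 12), among them when leaving out chow replicate 8 (0.164), chow replicate 9 (0.162) or STAM replicate 1 (0.191), 2 (0.161) or 3 (0.0627). F7 (factor VII, the partner of tissue factor) averaged 52.0 ± 5.70 CPM in STAM + Atglistatin livers, 57.9 ± 5.26 CPM in STAM livers and 74.4 ± 1.89 CPM in chow livers (SD, n = 3 each). It fell only in STAM + Atglistatin against chow (-0.52 ± 0.14, edgeR adjusted p = 0.038), a call lost in 6 of 12 alternatives (adjusted p 0.0174 to 0.145), among them without STAM + Atglistatin replicate 5 (0.145) or 6 (0.125) or chow replicate 8 (0.12) or 9 (0.123).

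F10 (factor X, which cuts prothrombin) was lower in all 3 STAM livers than in any chow liver but did not pass, with a log2 fold change of -0.26 in STAM against chow (edgeR adjusted p = 0.264). F5 (factor V, its cofactor) averaged 1073 ± 57.8 CPM in STAM + Atglistatin livers, 1104 ± 91.9 CPM in STAM livers and 1049 ± 39.2 CPM in chow livers (SD, n = 3 each). F13b, the carrier of the fibrin-cross-linking enzyme, averaged 172 ± 5.46 CPM in STAM + Atglistatin livers, 181 ± 1.89 CPM in STAM livers and 161 ± 11.2 CPM in chow livers (SD, n = 3 each). Both had positive log2 fold changes in STAM against chow (0.07 for F5 and 0.17 for F13b) that did not pass. For 6 further genes without a call or an example value (Masp2, C1s1, C3, F12, F9 and Hrg), the log2 fold changes lay between -0.25 and 0.19 in STAM against chow, -0.12 and 0.22 in STAM + Atglistatin against STAM, and -0.24 and 0.19 in STAM + Atglistatin against chow. Their edgeR adjusted p-values were 0.326 or more.

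**Figure D3:**
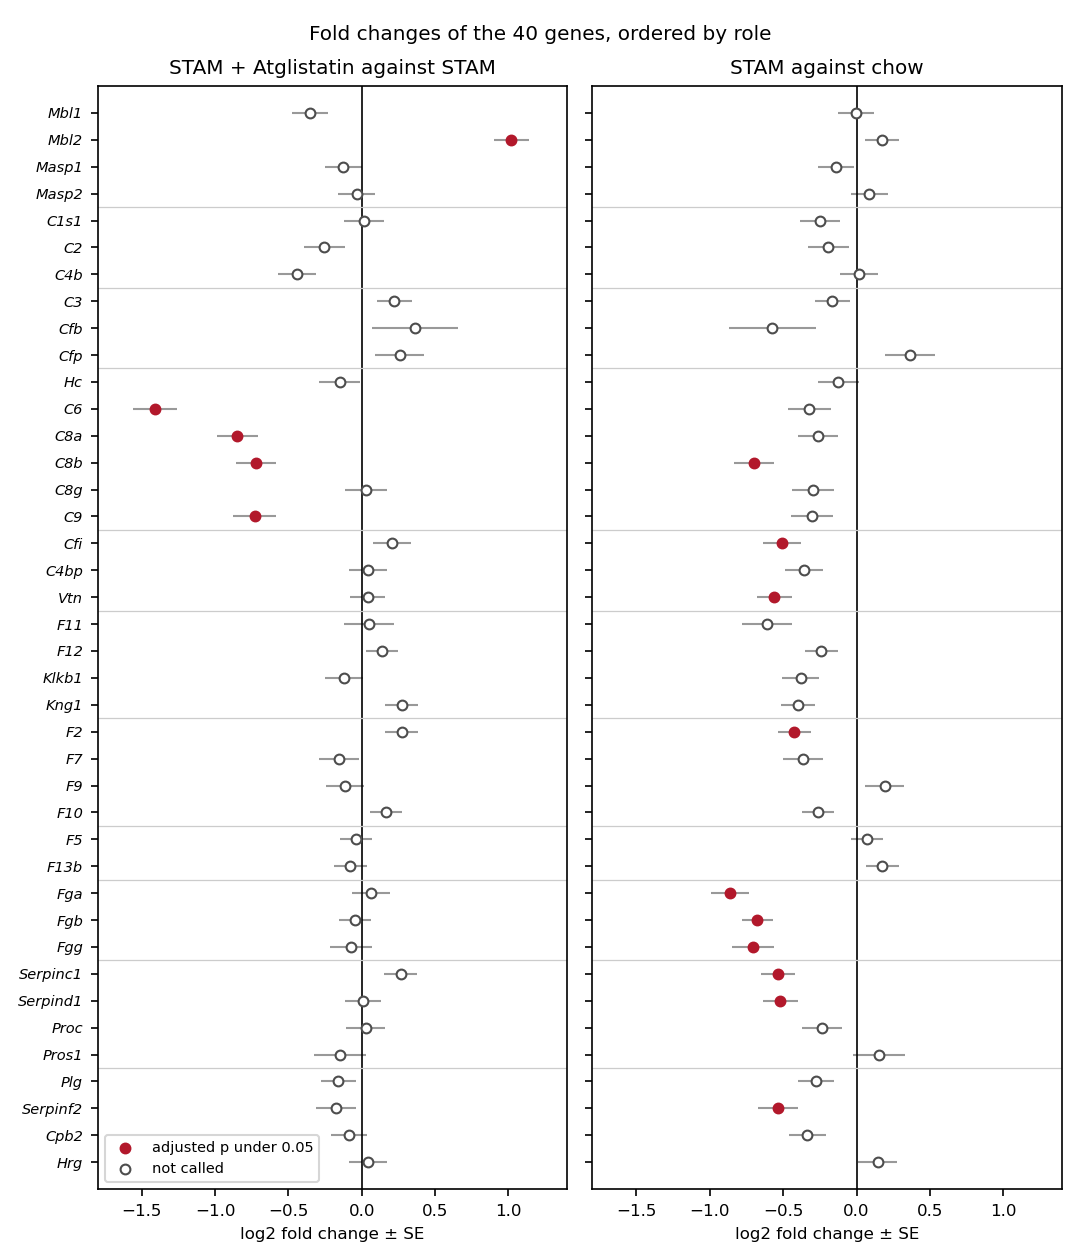
Log2 fold change and SE of each gene in STAM + Atglistatin against STAM (left) and STAM against chow (right), ordered by role; filled points had an edgeR adjusted p under 0.05. On the left the 4 filled pore genes run from -1.41 to -0.72 and Mbl2 stands at 1.02, and on the right the 10 filled genes run from -0.86 to -0.43.

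Of 4 natural anticoagulants, the 2 serpins fell in STAM livers. Serpinc1 (antithrombin, the main inhibitor of thrombin and factor Xa; chr1:160978585-161005863, plus strand) had 1904, 1584 and 1780 CPM in STAM + Atglistatin livers, 1413, 1512 and 1458 CPM in STAM livers and 1879, 2292 and 2180 CPM in chow livers. STAM livers were the lowest 3, and 1 STAM + Atglistatin liver reached the chow range. The log2 fold change was -0.53 ± 0.11 in STAM against chow (edgeR adjusted p = 0.00966) and 0.27 ± 0.11 in STAM + Atglistatin against STAM (edgeR adjusted p = 0.409). The call was lost without chow replicate 8 (edgeR adjusted p = 0.0638) or STAM replicate 1 (0.065), over a range of 0.000137 to 0.065. Serpinc1 overlaps the transcript Gm37729 on the same strand (59 to 125 counts a library).

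Serpind1 (heparin cofactor II, a second thrombin inhibitor; chr16:17331371-17343575, plus strand) had 363, 310 and 306 CPM in STAM + Atglistatin livers, 296, 314 and 362 CPM in STAM livers and 433, 490 and 469 CPM in chow livers. Chow was above all 6 other livers, which overlapped each other. Serpind1 fell in STAM (log2 fold change -0.52 ± 0.12, edgeR adjusted p = 0.019) and in STAM + Atglistatin livers (-0.51 ± 0.12, edgeR adjusted p = 0.0207) against chow. The first call was lost when leaving out chow replicate 8 (edgeR adjusted p = 0.0876), chow replicate 9 (0.065), STAM replicate 1 (0.133) or STAM replicate 2 (0.1), over a range of 0.00105 to 0.133. The second was lost without STAM + Atglistatin replicate 5 (edgeR adjusted p = 0.105) or 6 (0.0791) or chow replicate 8 (0.0964) or 9 (0.0766), over a range of 0.00131 to 0.105. The gene overlaps Pi4ka on the opposite strand (144 to 337 counts a library). Proc (protein C, which inactivates factors Va and VIIIa) and Pros1 (its cofactor protein S) were not called, with log2 fold changes in STAM against chow of -0.24 and 0.15.

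In fibrinolysis, the inhibitor of plasmin fell. Serpinf2 (alpha-2-antiplasmin; chr11:75431732-75439591, minus strand) had 318, 341 and 281 CPM in STAM + Atglistatin livers, 312, 314 and 436 CPM in STAM livers and 471, 545 and 523 CPM in chow livers. Chow livers were the highest 3. Serpinf2 fell in STAM against chow (log2 fold change -0.54 ± 0.14, edgeR adjusted p = 0.0349) and in STAM + Atglistatin against chow (-0.71 ± 0.14, edgeR adjusted p = 0.0051), and the second call remained in all 12 alternatives. The first was lost in 5 of 12 (adjusted p 0.00189 to 0.213), among them when leaving out chow replicate 8 (0.141), chow replicate 9 (0.11), STAM replicate 1 (0.213) or STAM replicate 2 (0.199). Plg (plasminogen, the plasmin precursor) had 1249, 1096 and 1197 CPM in STAM + Atglistatin livers, 1248, 1360 and 1349 CPM in STAM livers and 1348, 1631 and 1818 CPM in chow livers. It passed only in STAM + Atglistatin against chow (-0.44 ± 0.12, edgeR adjusted p = 0.0498), lost that call in 8 of 12 alternatives (adjusted p 0.00252 to 0.264), among them without any 1 of STAM + Atglistatin replicates 4, 5 and 6 or chow replicates 8 and 9 (0.0943 to 0.264), and overlaps Slc22a3 on the opposite strand. Cpb2 (a carboxypeptidase that slows fibrinolysis) averaged 348 ± 46.6 CPM in STAM + Atglistatin livers, 369 ± 3.50 CPM in STAM livers and 466 ± 42.6 CPM in chow livers (SD, n = 3 each) and was not called.

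**Figure D4:**
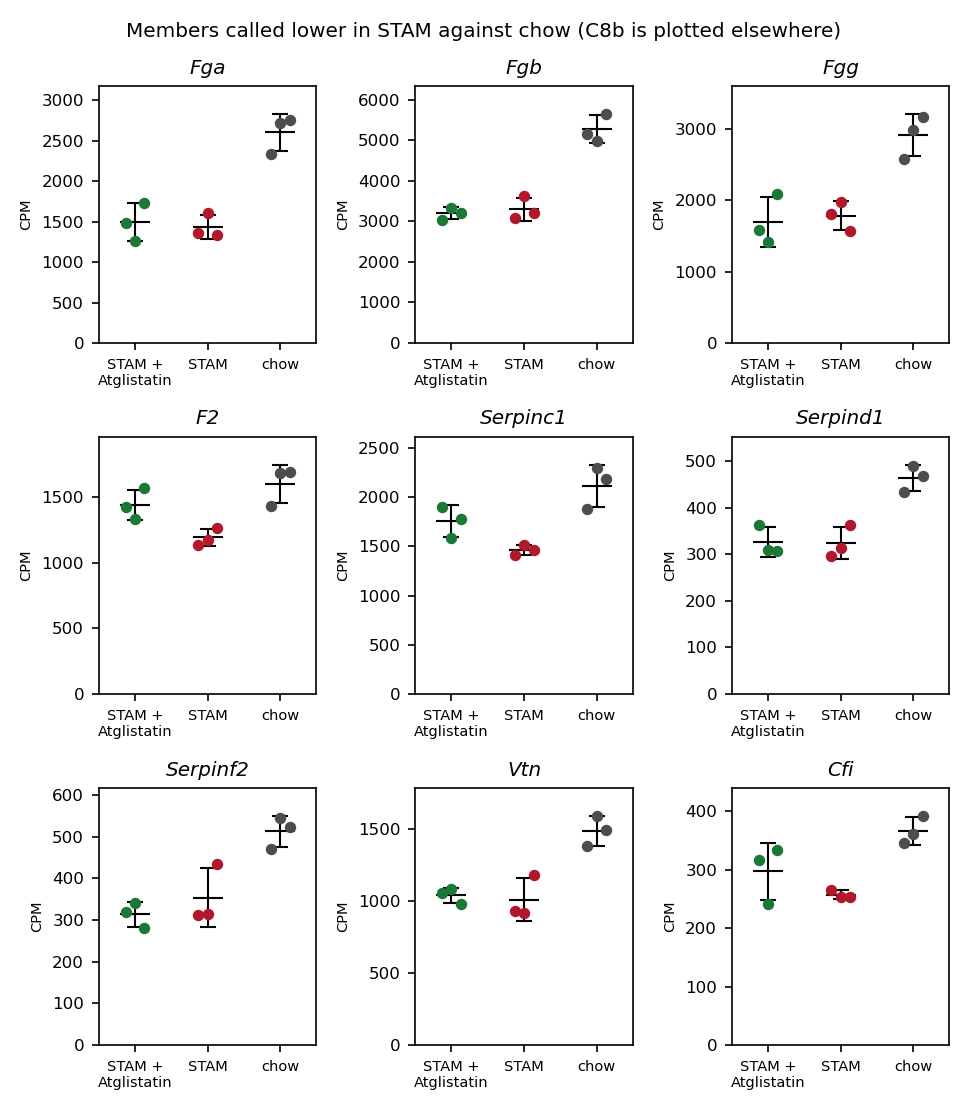
CPM in each liver (points), with group mean and SD (bars, n = 3), of the 9 genes besides C8b that were lower in STAM than in chow livers. With Atglistatin the fibrinogen chains, Serpind1, Serpinf2, Vtn and Cfi stay below all 3 chow livers, while F2 and Serpinc1 overlap chow and lie above all 3 STAM livers.

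**Figure D5:**
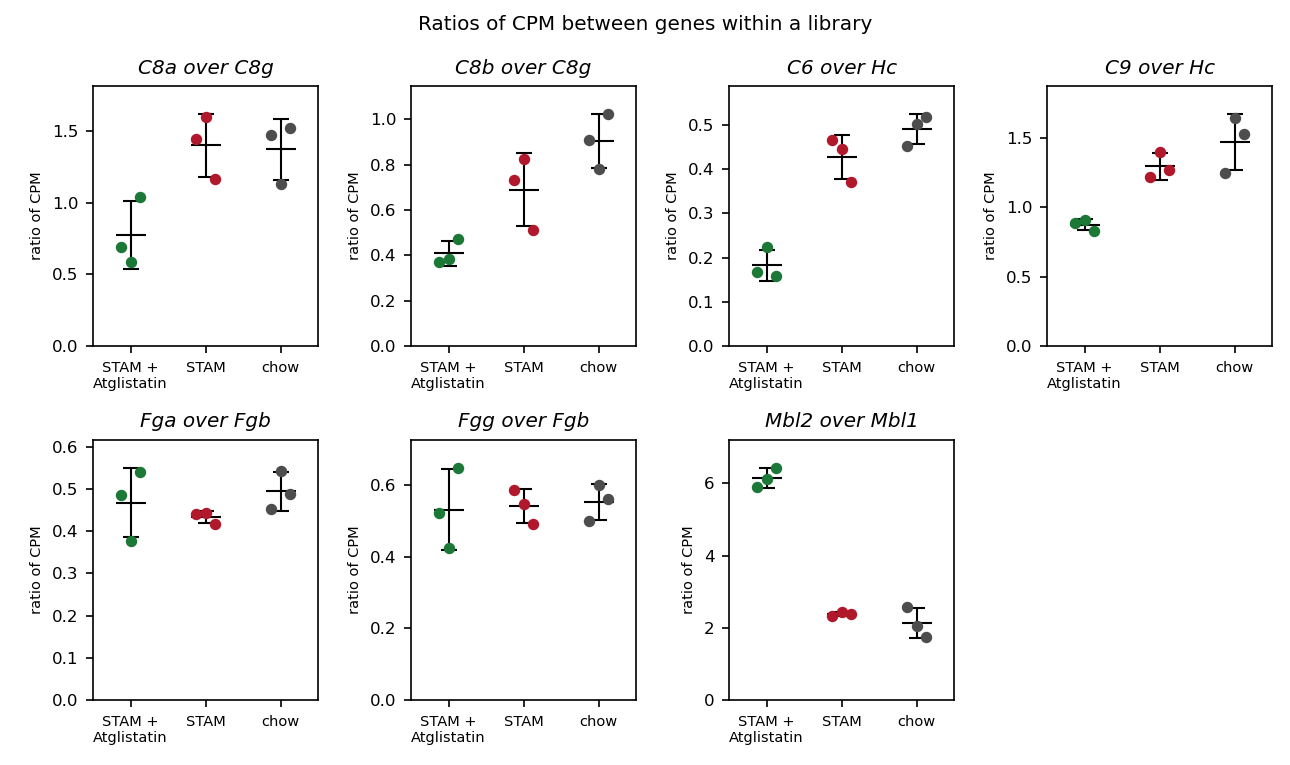
Ratio of CPM of a pair of genes within each liver (points), with group mean and SD (bars, n = 3). C6 over Hc is 0.183 ± 0.0355 with Atglistatin, 0.428 ± 0.0495 in STAM and 0.491 ± 0.0340 in chow livers, whereas Fgg over Fgb overlaps between all groups.

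Genes of the same systems outside the set were also called. Of 27 tested complement genes outside the set, 1 rose in STAM against chow livers (Cfd, factor D) and 1 fell (Cpn1, the anaphylatoxin-inactivating carboxypeptidase; log2 fold change -0.57 ± 0.13, edgeR adjusted p = 0.019). Each of these counts is 3.70% of the 27, beside 1.95% of all tested genes higher and 1.99% lower. With the inhibitor, 0 rose and 3 fell against STAM (Cfd, C4a and Susd4), which is 11.1% of the 27, against 0.742% of all tested genes and 10% of the 40. Cfd, which cuts factor B and is made chiefly by fat cells, averaged 5.44 CPM in STAM + Atglistatin livers, 149 CPM in STAM livers and 4.51 CPM in chow livers. Against chow, STAM + Atglistatin livers had 1 rise (Cd59a, which blocks C9 insertion; 0.49 ± 0.13, edgeR adjusted p = 0.0393) and 1 fall (Susd4, a complement inhibitor; -1.60 ± 0.34, edgeR adjusted p = 0.0109). That rise and that fall are each 3.70% of the 27, beside 2.10% of all tested genes higher and 1.97% lower. The median log2 fold change of the 27 was -0.17 in STAM against chow, 0.01 in STAM + Atglistatin against STAM and -0.18 in STAM + Atglistatin against chow.

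Of 19 tested clotting and fibrinolysis genes outside the set, 0 rose and 2 fell in STAM against chow livers (10.5%, against 1.99% of all tested genes and 25% of the 40). The falls were Hgfac, the protease that activates hepatocyte growth factor (log2 fold change -0.64 ± 0.17, edgeR adjusted p = 0.0428), and Tfpi2, a protease inhibitor (-0.99 ± 0.23, edgeR adjusted p = 0.016). Kng2 alone rose with the inhibitor against STAM, and Fgl1, a fibrinogen-like protein, alone rose against chow (0.95 ± 0.23, edgeR adjusted p = 0.0231). Each is 5.26% of the 19, beside 1.04% and 2.10% of all tested genes higher in those comparisons. The medians were -0.18 in STAM against chow, 0.18 in STAM + Atglistatin against STAM and -0.05 in STAM + Atglistatin against chow. Of 11 genes of the vitamin K cycle and of clotting factor secretion, Cyp4f14 fell in STAM against chow (-0.95 ± 0.14, edgeR adjusted p = 0.000287) and Nqo1 rose in STAM + Atglistatin against STAM (1.53 ± 0.36, edgeR adjusted p = 0.0349). Both also differed between STAM + Atglistatin and chow, in the same directions. Each of these calls is 1 gene, or 9.09% of the 11.

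Among 20 acute-phase genes, STAM against chow gave 5 rises (25%, against 1.95% of all tested genes) and 3 falls (15%, against 1.99%). Serum amyloid A genes were higher (Saa2 at 2.07 ± 0.26, edgeR adjusted p = 7.47e-05) and serum amyloid P was lower (Apcs at -1.84 ± 0.23, edgeR adjusted p = 5.9e-05), so that the fall of fibrinogen stood beside acute-phase changes in both directions. With the inhibitor against STAM, 0 rose and 2 fell (Saa2 and Saa1, 10% against 0.742% of all tested genes). Against chow, STAM + Atglistatin livers had 2 rises, Serpina3n (1.18 ± 0.13) and Orm2, and 2 falls, Apcs and Cp. Both counts are 10% of the 20, against 2.10% of all tested genes higher and 1.97% lower. Of 12 tested genes of interleukin-6 and STAT3 signalling, the receptor chain Lifr alone fell, in STAM against chow (-0.89 ± 0.17, edgeR adjusted p = 0.00435) and in STAM + Atglistatin against chow (-1.23 ± 0.17, edgeR adjusted p = 0.000269). Lifr is 1 gene, or 8.33% of the 12. Of 19 hepatocyte transcription factors, Tef rose and Foxa3 fell in both comparisons with chow, and Cebpd fell with the inhibitor against STAM (-1.14 ± 0.28, edgeR adjusted p = 0.0459). Each of these calls is 1 gene, or 5.26% of the 19. Among hepatocyte markers, Alb rose (0.63 ± 0.10, edgeR adjusted p = 0.00159) and Apob fell (-0.79 ± 0.14, edgeR adjusted p = 0.00467) with the inhibitor against STAM. In STAM + Atglistatin against chow, 1 of these markers rose and 5 fell. The 5 falls are 29.4% of the markers, beside 32.5% of the complement and clotting set and 1.97% of all tested genes.

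Apart from adipocyte genes, markers of other cells that make or carry complement and clotting proteins gave few calls. No marker of Kupffer cells (11 tested), stellate cells (10), cholangiocytes (6), neutrophils (3) or platelets (3) passed in any comparison. Kupffer-cell markers summed to 410 to 561 CPM in STAM + Atglistatin livers, 456 to 509 CPM in STAM livers and 380 to 507 CPM in chow livers. Stellate-cell markers summed to 497 to 539 CPM in STAM + Atglistatin livers, 405 to 551 CPM in STAM livers and 483 to 742 CPM in chow livers. The endothelial marker Lyve1 rose in STAM against chow, 1 of 11 (9.09%, against 1.95% of all tested genes). Neutrophil markers summed to 6.73 to 9.41 CPM in STAM + Atglistatin livers, 3.49 to 11.1 CPM in STAM livers and 2.96 to 7.72 CPM in chow livers, with Ly6g at 0 in all libraries. Platelet markers stayed at 16.9 CPM or less in every liver, and 0 of 8 lymphocyte genes had enough counts to be tested. Of 4 tested adipocyte genes, Cidec and Cfd rose in STAM against chow (50%, against 1.95% of all tested genes). Cfd fell with the inhibitor against STAM (25%, against 0.742%), while Lep was at 0 in all libraries. Of 5 tested red-cell genes, Alas2 alone fell, in STAM + Atglistatin against chow (-1.32 ± 0.24, edgeR adjusted p = 0.00294). That is 20% of the 5, against 1.97% of all tested genes.

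The authors' deposited table of comparisons gave nearly the same genes at an adjusted p under 0.05. Lower in STAM against chow in the authors' deposited table were 12 of the 40 genes, the 10 named above with Kng1 and F11. For STAM + Atglistatin against STAM the authors' deposited table had Mbl2 higher and 5 genes lower, the 4 pore genes with C4b. For STAM + Atglistatin against chow the authors' deposited table had 2 genes higher and 15 lower, adding Cpb2 and C4b to the 13 above. The share of all genes called in the authors' deposited table was not counted, so these counts stand without a background.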

How the data were processed

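Liver RNA of 9 mice was analysed, 3 in each of 3 groups, taken from sample titles and the study's design text. For chow and STAM samples the treatment label goes against these and was set aside. Libraries were made with a 3′ mRNA kit and sequenced on an Illumina instrument, per the labels' protocols. STAR and GRCm38 are named in the submitters' processing notes. Version, counting tool, annotation, strand and treatment of reads with several positions are not stated in what was used here. The deposited table holds the authors' read counts per gene and library. It also holds the authors' log2 fold changes and the authors' p-values, deposited with no tool named.

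The 40 genes, their roles, the 16 other gene lists and the tests were chosen with earlier results of these data known. Some genes are in 2 lists, among them Cfd, Fgl1, Hp, Hpx, Itih4, Vsig4, Colec10 and Tspan8. From the counts, 7 ribosomal RNA entries (0.260 to 0.529% of counts) were left out. The test was edgeR 4.0.16 under R 4.3.3 (12660 genes after filterByExpr, TMM scaling, 1 quasi-likelihood fit to 9 libraries, Benjamini-Hochberg adjustment over all tested genes), and a gene was called at an adjusted p under 0.05. The common biological coefficient of variation was 0.236. CPM is counts over the TMM-scaled total of tested genes. The script was tested on simulated data. Alternatives were DESeq2 1.42.0, limma 3.58.1 voom with sample weights, DESeq2 size factors, library totals, no low-count filter, the 2 compared groups alone, a fold threshold and leaving out each library. Genes called in the first 2 comparisons were given in every liver, those called only against chow with their fold change, and of the rest up to 2 examples a role with the smallest p. Ratios were chosen after values were seen. Positions are from GENCODE M21 (GRCm38) and promoters from RefSeq (GRCm38.p6).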

Additional observations from a re-analysis of the deposited data

How the results depend on the processing

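The 30 calls of single genes kept their sign in all 12 alternatives each, and kept their side of the threshold in 293 of 360 cases. In STAM against chow, C8b, Fga, Fgb and Fgg passed in all 12. In STAM + Atglistatin against STAM, Mbl2, C6 and C8a did. In STAM + Atglistatin against chow, Mbl2, C6, C8a, C8b, C9, Fga, Fgb, Fgg and Serpinf2 did. The number of the 40 genes lower in STAM against chow was 16 by limma-voom, against 10. Over all tested genes, limma-voom called 405 lower, against 252. When a log2 fold change of size 1 or more was also required, 0 were lower in STAM against chow, 1 was lower in STAM + Atglistatin against STAM, and 1 was higher and 4 were lower in STAM + Atglistatin against chow. Without a low-count filter 1 of the 40 was higher in the last comparison, and likewise 1 with only the 2 groups compared. Over all tested genes these settings gave 379 of 20630 and 190 of 12102 higher, beside 266 of 12660. Leaving out single libraries, the lower genes numbered 4 to 14 in STAM against chow, 2 to 4 in STAM + Atglistatin against STAM and 8 to 17 in STAM + Atglistatin against chow, where the higher genes numbered 1 to 2. The causes were not tested. Scaling by library totals gave 347 higher and 205 lower genes over the whole table in STAM against chow, beside 247 and 252, and 359 and 184 in STAM + Atglistatin against chow, beside 266 and 250, and under it 8 and 11 of the 40 were lower. No paired analysis was possible because the groups share no replicate number.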
